A study of Mus musculus with 7 samples.

Results

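The 10 genes described here are transcripts of fat cells, measured in RNA of mouse aorta. They were chosen by name, as the rows of a gene count table whose Ensembl identifiers map to *Ucp1*, *Cidea*, *Elovl3*, *Dio2* and *Ppargc1a*, which are thermogenic, and to *Adipoq*, *Lep*, *Plin1*, *Pparg* and *Retn*, which mark fat cells in general. All 10 were found among 47729 rows, and all 10 were among the 19188 genes that passed a filter on low counts. The libraries are 4 from wild-type mice (WT) and 3 from mice lacking the metalloproteinase gene *Mmp19* (*Mmp19*-/-, labelled MMP19KO and called KO here). The labels used here give the genotype and the tissue alone, with no strain, sex, age, treatment or dissection, and they do not say that each library is a separate mouse. P-values therefore measure the spread between these libraries, which may be technical.

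Perivascular fat surrounds the aorta outside its adventitia and is removed to a varying degree when the vessel is dissected. Around the mouse thoracic aorta it resembles brown fat, whose mitochondria burn fatty acids to make heat, while around the abdominal aorta it is closer to white fat, which stores lipid. In brown fat, noradrenaline acts on beta-adrenergic receptors, cyclic AMP rises, and a transcriptional programme that includes the coactivator PGC-1α raises the uncoupling protein UCP1, which lets protons back into the mitochondrial matrix without making ATP. Genes such as *Adipoq* and *Plin1* are transcribed in brown and white fat cells alike, so that setting the thermogenic genes against them is a way to read the kind of fat apart from its amount. In RNA of whole tissue, fewer fat cells and less RNA per fat cell cannot be told apart.

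The start regions of 4 members are shown because their levels behaved differently across the libraries. *Ucp1* and *Adipoq* moved together over most of them, *Dio2* was the steadiest, and *Retn* was only loosely tied to these genes. Each region covers 250 bases before and 50 bases after the annotated start, 5′ to 3′ on the strand of the gene. The sequences are from RefSeq on GRCm38.p6, where 8 of the 10 members had an entry. Capitals mark matches on either strand to 7 motifs: TATAAA together with its variant TATATA (which are core promoter boxes), TGACGTCA (the cyclic AMP response element), TGACG (the core of that element, which lies inside it), AGGTCA (a nuclear receptor motif), CCAAT (the box of that name) and TTGCGCAA (a C/EBP site).
*Ucp1*, chr8:83290098-83290397, plus strand: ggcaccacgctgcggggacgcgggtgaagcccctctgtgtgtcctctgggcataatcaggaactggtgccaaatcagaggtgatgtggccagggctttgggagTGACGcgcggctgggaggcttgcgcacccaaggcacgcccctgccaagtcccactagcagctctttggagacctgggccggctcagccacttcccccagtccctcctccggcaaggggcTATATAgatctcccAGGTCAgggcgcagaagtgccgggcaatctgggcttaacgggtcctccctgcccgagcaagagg
*Dio2*, chr12:90738989-90739288, minus strand: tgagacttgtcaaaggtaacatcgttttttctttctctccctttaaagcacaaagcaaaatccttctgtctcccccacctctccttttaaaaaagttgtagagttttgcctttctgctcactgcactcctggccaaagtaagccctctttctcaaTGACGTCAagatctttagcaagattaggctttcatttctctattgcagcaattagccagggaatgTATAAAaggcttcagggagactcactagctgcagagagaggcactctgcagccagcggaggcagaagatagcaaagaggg
*Adipoq*, chr16:23146286-23146585, plus strand: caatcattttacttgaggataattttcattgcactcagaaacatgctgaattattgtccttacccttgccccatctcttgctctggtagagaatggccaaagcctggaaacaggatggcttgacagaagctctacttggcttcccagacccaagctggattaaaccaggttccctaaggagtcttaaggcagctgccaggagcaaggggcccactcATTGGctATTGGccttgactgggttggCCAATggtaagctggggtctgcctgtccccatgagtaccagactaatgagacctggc
*Retn*, chr8:3655520-3655819, plus strand: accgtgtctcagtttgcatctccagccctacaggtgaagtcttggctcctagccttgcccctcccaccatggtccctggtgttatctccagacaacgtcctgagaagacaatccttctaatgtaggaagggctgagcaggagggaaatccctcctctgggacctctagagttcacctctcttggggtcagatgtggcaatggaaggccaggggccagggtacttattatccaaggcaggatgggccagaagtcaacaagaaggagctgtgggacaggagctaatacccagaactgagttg
The *Ucp1* window held TATATA at -28, AGGTCA at -14 and the shorter TGACG at -147, counted from the start to the leftmost base of the match as printed. The *Dio2* window held TATAAA at -30 and the full TGACGTCA at -95. It lies wholly outside the GENCODE M21 span of *Dio2* given below, so the annotations differ in the start of this gene. *Adipoq* had CCAAT at -34, -27 and -7, the first 2 of them on the opposite strand. The *Retn* window matched none of these letters. Over 32851 windows of the same length, the share with a match was 13.6% for TATAAA, 5.67% for TATATA, 1.79% for TGACGTCA, 20.8% for TGACG, 16.3% for AGGTCA, 37.4% for CCAAT and 0.183% for TTGCGCAA. Of the 8 members with an entry, *Lep* alone held TTGCGCAA, at -55, and *Ppargc1a* held TGACG at -49 on the opposite strand. A match describes the letters and is not a measured binding site.

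The libraries held 68151472 to 76926790 counts each, and levels are given in CPM, counts per 1000000 counts after scaling between libraries. The targeted gene itself was still counted in KO: *Mmp19* read 24.8, 24.8, 20.7 and 34.7 CPM in WT replicates 1 to 4 and 25.5, 12.0 and 15.9 CPM in KO replicates 1 to 3, so that the groups overlapped (edgeR quasi-likelihood test, Benjamini-Hochberg adjusted p = 0.368). Which exons these counts fall on cannot be seen in a table by gene, so the labels remain unchecked by this value. The 8 smooth muscle markers, which define the vessel wall, summed to 18286 to 20234 CPM in WT and to 3497, 13734 and 7190 CPM in KO replicates 1, 2 and 3. The 10 macrophage markers summed to 337 to 572 CPM in WT and to 3819, 708 and 1234 CPM in KO. KO replicate 1 thus stood apart in both lists. Markers of skeletal muscle summed to 6.91 to 11.3 CPM in WT and to 27.7, 21.5 and 211 CPM in KO replicates 1 to 3. Every KO library thus lay above WT in that sum, with KO replicate 3 highest. In KO replicates 1 and 2 most of the sum came from *Ckm*, named after its values were seen. By the median deviation of the 8 markers from the WT mean, only KO replicate 3 lay above WT. That deviation was 0.43, 0.16 and 5.31 (log2 CPM) in KO replicates 1 to 3 and -0.22 to 0.44 in WT. Of the 8 markers 2 were higher in KO without overlap. Heart muscle markers were highest in KO replicates 1 and 2 (804 and 1440 CPM, against 37.9 to 164 CPM elsewhere). The sums of blood and lymph node markers (4796 CPM) and of mesothelial markers (122 CPM) were also highest in KO replicate 3, against at most 1841 and 80.8 CPM elsewhere. Most of the 4796 CPM came from the globin genes *Hba-a1* (1928 CPM) and *Hbb-bs* (2753 CPM). Of the 7 blood and lymph node genes 3 were highest in KO replicate 3 and 3 in WT replicate 2. *Cd79a* of that list read 0.997 CPM in KO replicate 3, within the WT range of 0.869 to 1.17 CPM. Nerve sheath markers were highest in WT replicate 3 (133 CPM, against 24.6 to 66.2 CPM elsewhere). The part of these tissues in the results on fat genes was not tested, beyond leaving out each library.

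Fat cell transcripts were present in every library, and no member passed a test between the genotypes. Of the 10 members, edgeR called 0 at an adjusted p under 0.05 (0.0156% of all tested genes were called), and 0 passed at an unadjusted p under 0.05 (17.2% of all tested genes). DESeq2 called 0 of the 10 as well (9.68% of all genes), as did limma-voom with quality weights (0.0365%). For every member the KO and WT libraries overlapped, whereas 16.7% of all tested genes had groups without overlap, 8.17% with KO higher and 8.56% with KO lower. The 5 thermogenic members had a median log2 fold change of -0.02 for KO against WT, with 3 negative and 2 positive, and the 5 general members one of 0.02, with 2 negative and 3 positive. Over all tested genes the median was -0.03.

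**Figure D1:**
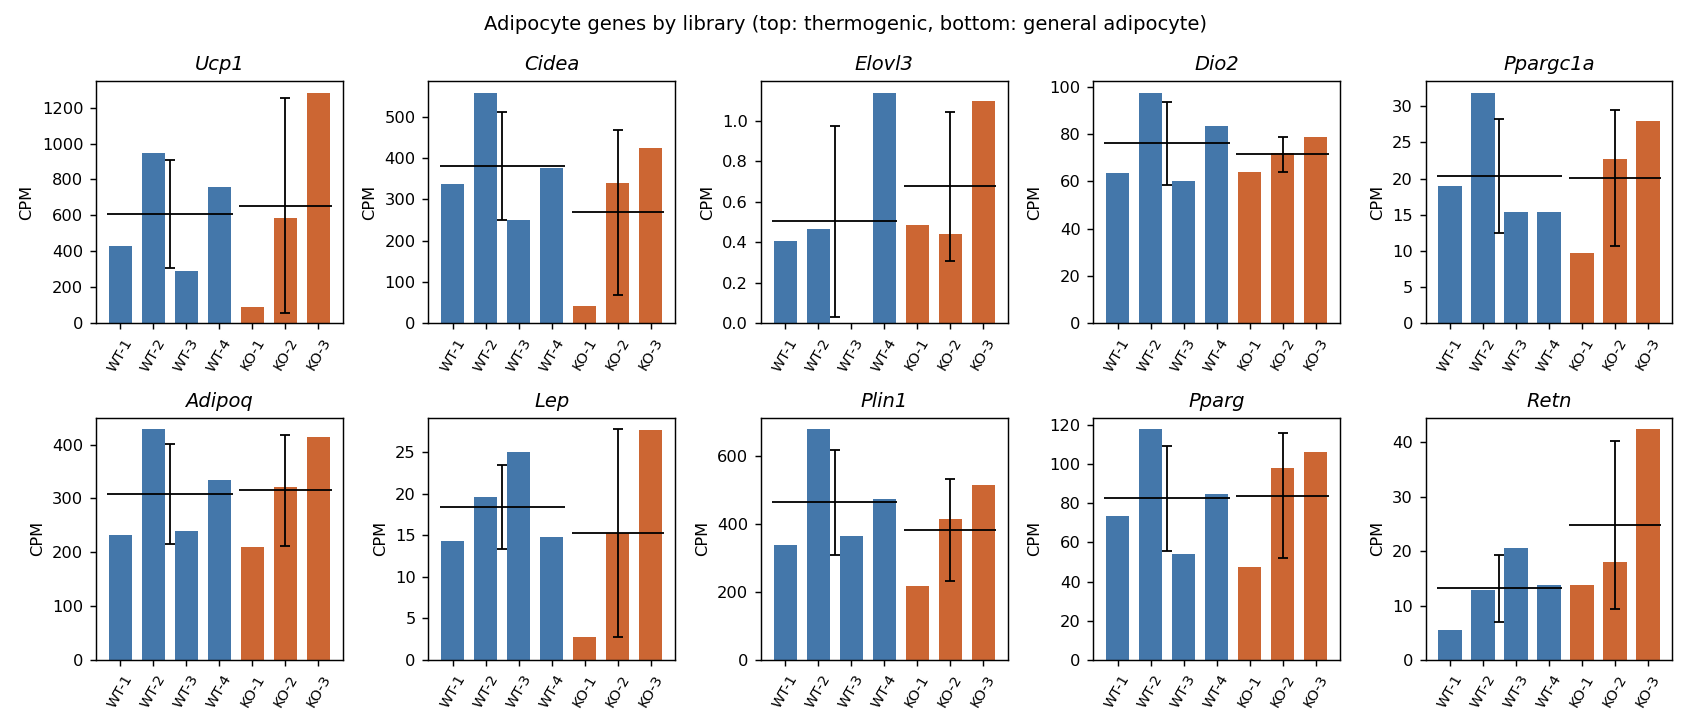
CPM of the 10 members (one panel each, linear axes from 0) in the 4 WT libraries (blue) and the 3 KO libraries (orange), with group means as horizontal lines and SDs as error bars. KO-1 is lowest for 7 of the 10 members, and WT-2 or KO-3 is highest for 9 of the 10.

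*Ucp1* (chromosome 8, 83290352 to 83298452) encodes the uncoupling protein that defines thermogenic fat; positions here and below are those of GENCODE M21 on GRCm38. It read 429, 950, 291 and 760 CPM in WT replicates 1 to 4 and 92.2, 586 and 1284 CPM in KO replicates 1 to 3. The KO libraries held both the lowest and the highest value of all 7, a range of 13.9-fold, and the other KO library fell between the WT extremes. The log2 fold change was 0.11 (SE 0.77, 95% interval -1.69 to 1.91, edgeR adjusted p = 0.957). Its sign turned when single libraries were left out, from 0.62 without KO replicate 1 to -0.84 without KO replicate 3. *Cidea* (chromosome 18) encodes a lipid droplet protein that is abundant in brown fat. It read 337, 558, 250 and 377 CPM in WT and 42.2, 340 and 423 CPM in KO. KO replicate 1 again lay far below the other 6 libraries, which overlapped, and the log2 fold change of -0.50 (SE 0.67, 95% interval -2.06 to 1.06, edgeR adjusted p = 0.735) was 0.00025 without it.

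The other thermogenic genes were steadier or close to the limit of counting. *Dio2* (chromosome 12, 90724552 to 90738438), the deiodinase that makes active thyroid hormone inside the cell, read 63.3, 97.4, 60.1 and 83.1 CPM in WT and 63.8, 71.9 and 78.5 CPM in KO. All 3 KO values lay within the WT range, and KO replicate 1 did not stand apart (log2 fold change -0.09, SE 0.19, 95% interval -0.53 to 0.35, edgeR adjusted p = 0.839). *Dio2* had the narrowest interval of the 10 members. *Ppargc1a* (chromosome 5, 51454250 to 51567726), which encodes PGC-1α, read 19.0, 31.9, 15.3 and 15.4 CPM in WT and 9.74, 22.6 and 28.0 CPM in KO. Its groups overlapped with KO replicate 1 lowest, and its log2 fold change was -0.02 (SE 0.40, 95% interval -0.96 to 0.92, edgeR adjusted p = 0.986). This gene is also transcribed in heart and skeletal muscle, whose markers varied between libraries as given above.

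*Elovl3* (chromosome 19, 46131897 to 46135694), a fatty acid elongase known for its strong induction in brown fat in the cold, was near 0 throughout. Its counts were 26, 33, 0 and 84 in WT and 40, 31 and 85 in KO, or at most 1.14 CPM. The same libraries gave between 7587 and 99157 counts for *Ucp1*, so that the low level of *Elovl3* was not shared by the other thermogenic members. Its interval for the log2 fold change, -2.16 to 3.01, was the widest of the 10 (edgeR adjusted p = 0.877). *Elovl3* shares 10 exonic bases with *Pitx3*, and *Dio2* shares 100 with *Gm26512*, each on the opposite strand. The strand setting of the counting is not given in the sources used here, so reads there cannot be assigned to 1 gene. No other member shared exonic bases with another gene in GENCODE M21.

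Among the general genes, *Adipoq* (chromosome 16, 23146536 to 23158028), the secreted hormone adiponectin, read 231, 429, 240 and 335 CPM in WT and 209, 321 and 415 CPM in KO. The lowest value was that of KO replicate 1, but it lay only just under the lowest WT library (log2 fold change 0.03, SE 0.30, 95% interval -0.67 to 0.73, edgeR adjusted p = 0.969). *Plin1* (chromosome 7, 79720218 to 79732903), perilipin 1, coats the lipid droplet and guards it against lipases. It read 339, 679, 364 and 474 CPM in WT and 217, 416 and 514 CPM in KO (log2 fold change -0.28, SE 0.35, 95% interval -1.10 to 0.54, edgeR adjusted p = 0.718). *Pparg* (chromosome 6, 115360951 to 115490399), the nuclear receptor that drives fat cell differentiation, read 73.5, 118, 54.1 and 84.7 CPM in WT and 47.2, 97.9 and 106 CPM in KO. In all 3 of these genes WT replicate 2 was highest and KO replicate 1 lowest, and the *Pparg* log2 fold change was 0.02 (SE 0.34, 95% interval -0.77 to 0.81, edgeR adjusted p = 0.981).

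The remaining hormones of the general group were both highest in KO replicate 3. *Lep* (chromosome 6, 29060220 to 29073877), leptin, the satiety hormone made mostly by white fat, read 14.3, 19.6, 25.0 and 14.7 CPM in WT and 2.73, 15.3 and 27.7 CPM in KO. KO replicate 1 lay far below the lowest WT library, while the other KO libraries lay within or just above the WT range (log2 fold change -0.27, SE 0.64, 95% interval -1.76 to 1.22, edgeR adjusted p = 0.861). *Retn* (chromosome 8, 3655770 to 3660110), resistin, which in mice is secreted by fat cells, read 5.56, 12.8, 20.6 and 13.8 CPM in WT and 13.9, 17.9 and 42.4 CPM in KO. It was the one member besides *Dio2* and *Elovl3* that was not lowest in KO replicate 1, and only KO replicate 3 lay above the WT range. The log2 fold change, 0.91, exceeded that of any other member and missed the threshold (SE 0.50, 95% interval -0.27 to 2.08, edgeR adjusted p = 0.398). An exact 2-sided permutation of its log2 CPM over the 7 libraries gave p = 0.257, where 0.0286 is the smallest p that 4 against 3 libraries allow.

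**Figure D2:**
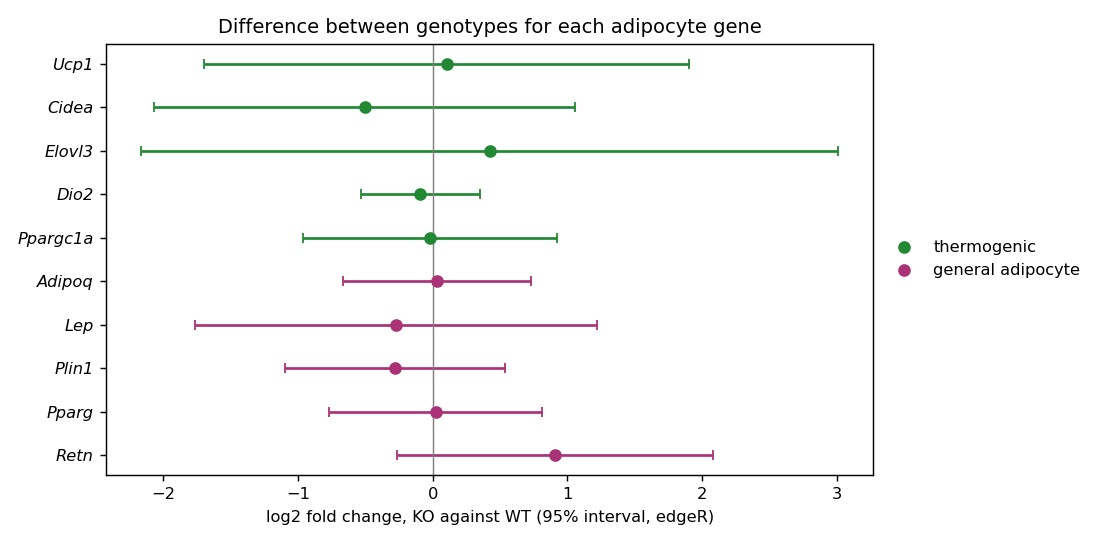
Log2 fold change of KO against WT (horizontal axis) for each member, with 95% intervals from edgeR, thermogenic genes in green and general adipocyte genes in purple. Every interval includes 0, and the intervals run from the narrow one of *Dio2* (-0.53 to 0.35) to the wide one of *Elovl3* (-2.16 to 3.01).

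Levels were compared between members per kilobase of annotated exon. In WT, *Ucp1* stood at 372 ± 184 CPM per kilobase (SD, n = 4), *Cidea* at 341 ± 117 and *Adipoq* at 224 ± 67.2, and the ranges of these neighbours over the WT libraries overlapped. *Plin1* followed at 99.8 ± 33.3, *Pparg* at 27.9 ± 9.03 and *Dio2* at 13.1 ± 3.02 CPM per kilobase (SD, n = 4), each below the one before it without overlap of the WT libraries. *Retn* at 8.34 ± 3.89, *Lep* at 5.49 ± 1.5 and *Ppargc1a* at 3.09 ± 1.19 CPM per kilobase overlapped from neighbour to neighbour, *Retn* also with *Dio2*. *Elovl3* came last at 0.255 ± 0.239 CPM per kilobase, under every other member in every WT library. By this scale the 2 most abundant transcripts of the set in WT were thermogenic ones. *Ucp1* and *Cidea* also led in KO replicates 2 and 3. In KO replicate 1 *Adipoq* was highest, at 152 CPM per kilobase, against 56.4 for *Ucp1* and 37.9 for *Cidea*. Exon length was summed over all annotated transcripts, which understates the level of genes that use only some of them.

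The spread within WT was itself wide for these genes. The SD of log2 CPM over the 4 WT libraries was 0.776 for *Ucp1*, larger than that of 94.2% of the 13546 tested genes with a mean of 2 CPM or more, whose median SD was 0.193. For *Retn* it was 0.79, for *Adipoq* 0.422 and for *Dio2*, the steadiest member, 0.33, which 75.8% of genes stayed under. Within KO the SD was 1.95 for *Ucp1*, 1.83 for *Cidea* and 1.73 for *Lep*, each above that of at least 98.2% of genes, and 0.151 for *Dio2*, where 22.8% of genes had a smaller one. The members thus varied between libraries of 1 genotype more than most transcripts did, apart from *Dio2* in KO.

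Most members varied together from library to library. Over the 7 libraries, Pearson's r of log2 CPM was positive in 44 of the 45 pairs of members, with a median of 0.717. It is given as a description, since these genes were chosen as markers of the same cells and share library and scaling. Without *Elovl3* the median was 0.819 over 36 pairs, and 0.772 when KO replicate 1 was left out. *Ucp1* and *Adipoq* had an r of 0.894 and a Spearman's rho of 0.929, and an r of 0.934 without KO replicate 1. *Adipoq* and *Plin1* ranked the libraries identically. The likeness of *Lep* to the brown fat genes rested on KO replicate 1: its r with *Ucp1* was 0.816 over 7 libraries and 0.19 without that library, and with *Cidea* 0.90 and -0.013. *Retn* was loosely tied to most others, with an r of 0.085 with *Cidea* and 0.473 with *Adipoq*. With *Lep* its r was 0.339 over 7 libraries and 0.78 without KO replicate 1, its highest with any member there.

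Outside the members, the genes most like *Ucp1* in log2 CPM, among 13537 ranked, were *Afg1l* (r = 0.998), *Ndufs4* (0.998), *Acadm* (0.997), *Uqcrfs1* (0.997) and *Hibch* (0.995), and each ranked the 7 libraries exactly as *Ucp1* did. *Ndufs4* and *Uqcrfs1* encode subunits of respiratory complexes I and III, and *Acadm* encodes the medium-chain acyl-CoA dehydrogenase of fatty acid oxidation. Without KO replicates 1 and 3, the libraries farthest from the *Ucp1* median, r was still between 0.99 and 0.997. Those most like *Adipoq* were *Mrpl13* (r = 0.993), *Glrx5* (0.989), *Nfs1* (0.986), *Ppp2r5a* (0.985) and *Nudt7* (0.984). *Mrpl13* encodes a protein of the mitochondrial ribosome, and *Glrx5* and *Nfs1* serve the assembly of iron-sulphur clusters. Picked as the best of 13537 genes, these correlations are descriptions of 7 libraries, and none of the 10 genes passed the test between the genotypes (edgeR adjusted p from 0.911 to 0.993).

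Setting the thermogenic genes against *Adipoq* within each library gives a value that does not depend on the scaling between libraries. The ratio of *Ucp1* to *Adipoq* counts was 1.86, 2.22, 1.22 and 2.27 in WT replicates 1 to 4 and 0.44, 1.82 and 3.10 in KO replicates 1 to 3. KO again held the lowest and the highest value. The log2 ratio differed by -0.44 between KO and WT (exact 2-sided permutation p = 0.686, smallest possible p 0.0286), and by 0.37 without KO replicate 1 (exact p = 0.533). For *Cidea* the ratio was 1.46, 1.30, 1.04 and 1.12 in WT and 0.202, 1.06 and 1.02 in KO. Relative to *Adipoq*, both *Ucp1* and *Cidea* were lower in KO replicate 1 than in any of the other 6 libraries. *Dio2* did not share this: its ratio was 0.304 in KO replicate 1, the highest of the 7, against 0.227 to 0.274 in WT and 0.224 and 0.189 in the other KO libraries. *Ppargc1a* lay between, with 0.0465 in KO replicate 1 and 0.0459 in WT replicate 4, its lowest values.

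**Figure D3:**
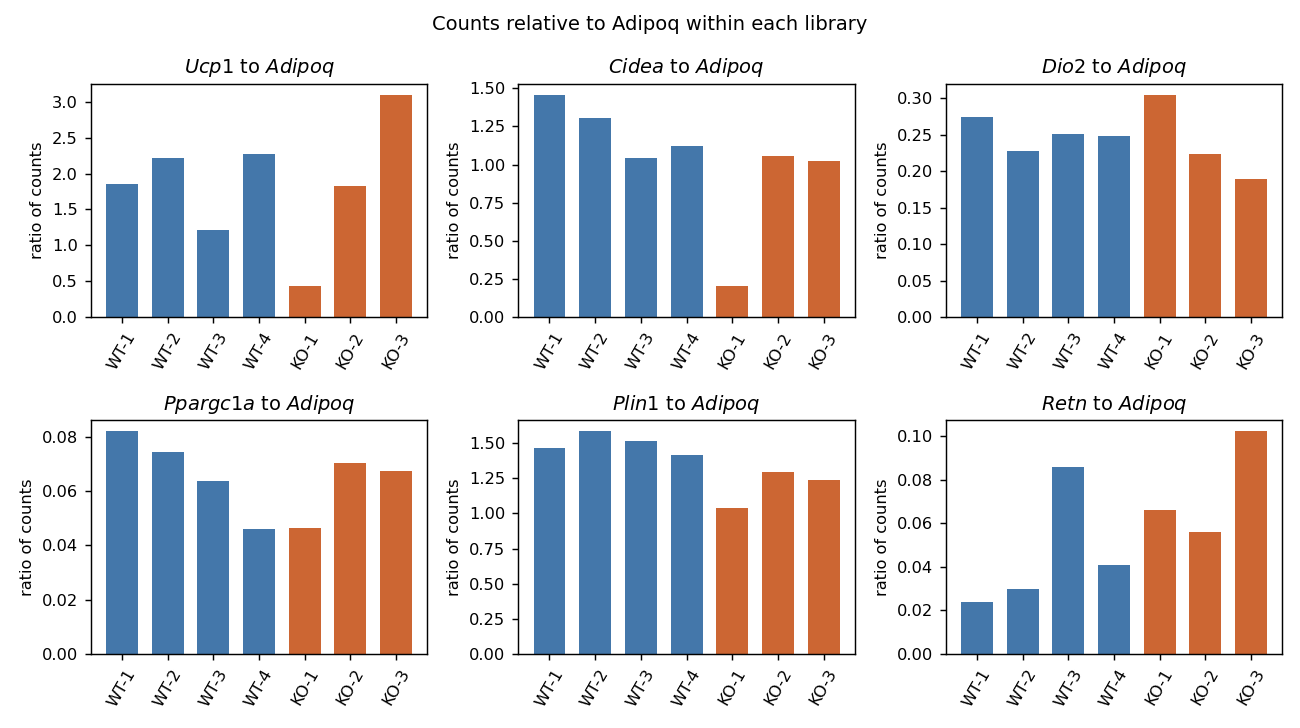
Ratio of the counts of 6 members to those of *Adipoq* within each library (linear axes from 0), WT in blue and KO in orange. KO-1 is far below the other libraries for *Ucp1* (0.44) and *Cidea* (0.202) and highest for *Dio2* (0.304), and for *Plin1* the KO libraries lie below the WT libraries.

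Within the general group, *Plin1* per *Adipoq* was the one ratio of 9 whose groups did not overlap, a share to be read beside the 6.78% of all tested genes that do so, 3.53% with KO lower. It was 1.47, 1.58, 1.52 and 1.42 in WT replicates 1 to 4 and 1.04, 1.30 and 1.24 in KO replicates 1 to 3, so that every KO library lay below every WT library by a small margin. It was singled out after its values were seen and was not tested. *Lep* per *Adipoq* was 0.013 in KO replicate 1 and 0.0668 or less in the other KO libraries, against 0.044 to 0.105 in WT. *Retn* per *Adipoq* averaged 0.0748 ± 0.0244 in KO (SD, n = 3) and 0.0452 ± 0.028 in WT (SD, n = 4), with WT replicate 3 inside the KO range. *Pparg* per *Adipoq* averaged 0.262 ± 0.0401 in KO and 0.268 ± 0.0389 in WT (SD, n = 3 and 4).

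Other genes of brown fat followed *Ucp1* and *Cidea* in KO replicate 1. Of 32 further brown fat and thermogenic genes 30 were tested, and edgeR called 0 of them. At an unadjusted p under 0.05, 0 were higher and 1 was lower (of all genes, 9.92% were higher and 7.27% lower), and DESeq2 called 1, lower (9.68% of all genes were called). Their median log2 fold change was -0.42, with 26 negative, and it was -0.03 without KO replicate 1 and -0.85 without KO replicate 3. By library, their median deviation from the WT mean was -1.75, -0.25 and 0.23 (log2 CPM) for KO replicates 1 to 3, and -0.43 to 0.45 in WT. Of the 30 genes 26 were lowest in KO replicate 1, as were 29.5% of all tested genes, and relative to *Adipoq* 20 of 30 were, against 7.81% of all. *Cox8b*, a cytochrome oxidase subunit of brown fat and muscle chosen here after its values were seen, read 28.4, 54.1, 27.0 and 42.6 CPM in WT and 7.74, 43.1 and 55.1 CPM in KO, the order of *Ucp1* except that WT replicate 4 and KO replicate 2 changed places. The 9 mitochondrially encoded genes were all lowest in KO replicate 1, summing to 48042 CPM there and to 99230 to 148284 CPM in the other 6 libraries.

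*Prdm16*, a transcriptional regulator of brown fat identity that is also active in arteries, was the gene of that list with the smallest p. It read 73.7, 76.7, 96.2 and 73.2 CPM in WT and 24.3, 56.7 and 35.3 CPM in KO. Every KO library lay below every WT library, including KO replicate 3, where *Ucp1* was at its highest (8.56% of all tested genes were lower in KO without overlap). KO was lower by a log2 fold change of -1.04 (SE 0.28), which missed the threshold in edgeR over all genes (adjusted p = 0.179), against 0.00986 by DESeq2. Smooth muscle markers ran in the same order over the KO libraries, as their sums above show, and their part in this result was not tested. Next by p were *Slc6a8*, the creatine transporter, *Fabp3*, a fatty acid binding protein of muscle and brown fat, and *Ebf2*, a transcription factor of brown fat precursors. Their log2 fold changes were -0.29, -0.79 and -0.67 (edgeR adjusted p = 0.375, 0.378 and 0.393).

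White fat and lipid storage genes lay below the WT mean in KO replicate 1, by less than the brown fat genes, and above it in KO replicate 3, by more. All 42 on the list were tested, edgeR and DESeq2 called 0, and at an unadjusted p under 0.05 1 was higher and 0 were lower (of all genes, 9.92% were higher and 7.27% lower, and DESeq2 called 9.68%). The median log2 fold change was -0.02, with 23 negative and 19 positive, and it turned from -0.28 without KO replicate 3 to 0.20 without KO replicate 1. In KO replicate 1 their median deviation was -0.63, against -1.75 for the brown fat list, and in KO replicate 3 it was 0.55, against 0.23. Of the 42 genes 25 were lowest in KO replicate 1 and 21 highest in KO replicate 3 (29.5% and 11% of all tested genes). *Abhd5*, the coactivator of triglyceride lipase, had the smallest p, with 45.6, 47.1, 39.4 and 68.7 CPM in WT and 62.7, 74.1 and 92.5 CPM in KO (log2 fold change 0.61, SE 0.22, edgeR adjusted p = 0.227). *Scd1*, a desaturase of fatty acid synthesis, read 1512, 2737, 1901 and 1623 CPM in WT and 1403, 3369 and 7290 CPM in KO. *Fasn*, fatty acid synthase, named after its values were seen, read 704, 1623, 1062 and 873 CPM in WT and 485, 2002 and 5130 CPM in KO. For both genes KO replicate 1 was lowest and KO replicate 3 highest of all 7 libraries, and neither passed the test (edgeR adjusted p = 0.347 and 0.391). *Nnat* and *Rbp4*, the other named genes of the list, had log2 fold changes of -0.89 and -0.87 (edgeR adjusted p = 0.293 and 0.325).

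**Figure D4:**
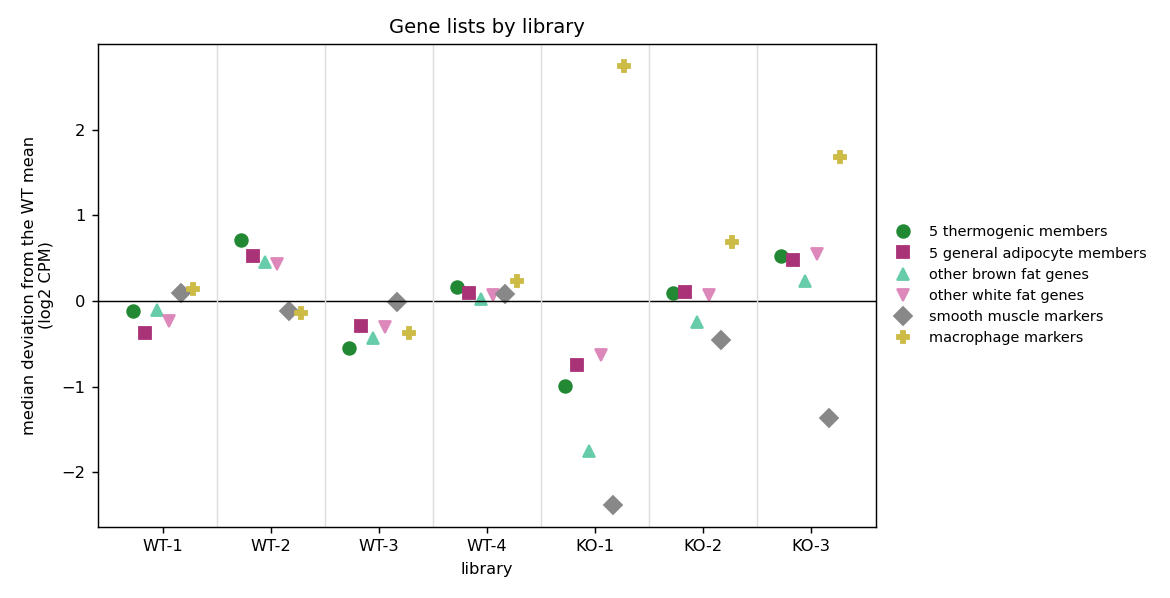
Median deviation of 6 gene lists from the mean of the WT libraries (vertical axis, log2 CPM) in each of the 7 libraries. In KO-1 the brown fat genes (-1.75) lie below the white fat genes (-0.63), and the smooth muscle markers lie below and the macrophage markers above WT in all 3 KO libraries, least in KO-2, while the brown and white fat genes of KO-3 lie above the WT mean.

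Genes of the signals that govern thermogenesis were low in KO replicate 1 and near WT in the other KO libraries. Of 27 genes for signalling and control 26 were tested, with a median log2 fold change of -0.21 (19 negative, 7 positive), and edgeR called 0. That median was -0.07 without KO replicate 1 and -0.35 without KO replicate 3. Their median deviation from the WT mean was -0.78, -0.02 and -0.04 (log2 CPM) for KO replicates 1 to 3 and -0.16 to 0.12 in WT, and 17 of the 26 were lowest in KO replicate 1 (29.5% of all tested genes were). At an unadjusted p under 0.05, 2 were higher and 2 lower, near the shares over all genes (9.92% higher and 7.27% lower), and DESeq2 called 2, both lower (9.68% of all genes were called). These were *Ckb*, the brain-type creatine kinase, with 128 ± 21.4 CPM in WT and 73.0 ± 12.9 CPM in KO (SD, n = 4 and 3, edgeR adjusted p = 0.166), and *Thra*, a thyroid hormone receptor, with 185 ± 11.3 and 112 ± 35.2 CPM (edgeR adjusted p = 0.188). For both genes every KO library lay below every WT library, as in 4 of the 26 tested genes in all (8.56% of all tested genes). Over the KO libraries both ran in the order of *Prdm16* and of the smooth muscle sums above. The part of smooth muscle was not tested. *Sln* and *Atp2a1*, a regulator of the calcium pump and a calcium pump of striated muscle, were the higher ones. *Atp2a1* reached 29.9 CPM in KO replicate 3 and at most 1.19 CPM elsewhere, the library in which skeletal muscle markers were highest, and *Sln* read 8.19 and 18.8 CPM in KO replicates 1 and 2, where heart muscle markers were highest, and 0.737 CPM or less elsewhere. *Adrb3*, the fat cell receptor for noradrenaline, which stands on the brown fat list and was named after its values were seen, read 28.5, 144, 76.2 and 169 CPM in WT and 104, 123 and 132 CPM in KO. Unlike *Ucp1*, it was not low in KO replicate 1.

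Genes of fat progenitors and of the capillaries and nerves of fat were examined last. Of 15 progenitor genes 14 were tested, with a median log2 fold change of -0.10, and edgeR called 0, while 2 were higher and 1 lower at an unadjusted p under 0.05 (9.92% and 7.27% of all tested genes). That median ran from -0.17 without WT replicate 3 to -0.06 without KO replicate 3. *F3*, tissue factor, was lower in every KO library (124 ± 25.0 CPM in WT and 54.8 ± 15.2 CPM in KO, SD, n = 4 and 3, edgeR adjusted p = 0.165, DESeq2 adjusted p = 0.000346). Of the 14 genes 2 were lower in KO without overlap (8.56% of all tested genes), and DESeq2 called 1 (9.68% of all genes were called). Over the KO libraries *F3* ran in the order of the smooth muscle sums above. The part of smooth muscle was not tested. *Ly6a* and *Dpp4*, surface markers of adventitial and adipose progenitors, had log2 fold changes of 0.57 and 0.46 (edgeR adjusted p = 0.275 for each), and *Pi16* one of -0.64 (edgeR adjusted p = 0.322). Among 10 capillary and nerve genes edgeR and DESeq2 called 0, and at an unadjusted p under 0.05 0 were higher and 0 were lower, against the same shares. *Fabp5*, a fatty acid carrier, *Cd300lg*, a capillary surface protein, and *Nrtn*, the nerve survival factor neurturin, had log2 fold changes of 0.91, -0.57 and -0.66 (edgeR adjusted p = 0.294, 0.314 and 0.444). *Th*, the enzyme that starts noradrenaline synthesis in sympathetic nerves, read 212 CPM in WT replicate 3, 8.82 CPM in KO replicate 3 and 0.338 CPM or less in the other 5 libraries (edgeR adjusted p = 0.522). The median log2 fold change of the 10 genes was -0.62, and 0.20 without WT replicate 3, where the nerve sheath markers were highest. That median also depended on the processing, with 0.54 by limma-voom and -0.09 with a filter of 50 counts in 3 libraries. *Gpihbp1*, which anchors lipoprotein lipase to the capillaries of fat and heart, was named after its values were seen and had a log2 fold change of -0.11 (edgeR adjusted p = 0.752).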

How the data were processed

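Per the labels' protocols, RNA of the aortas was taken up in Trizol and sequenced from SMARTER libraries. For each gene and library the authors deposited an estimated count, as a whole number without scaling, so rounding changed nothing. The submitters' processing notes name GRCm38 and mm10. Sources used here do not give the aligner, the counter, the annotation release or the strand setting. A symbol was found for 47224 of 47729 identifiers. Depth was 68151472 to 76926790 counts per library. In the deposited table the value 4 occurs 5143 times, against 3704 for 3 and 3600 for 5, so that 1 count need not be 1 read.

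All genes were fitted together with edgeR 4.0.16 in R 4.3.3 (filterByExpr on the group, TMM, glmQLFit and glmQLFTest, no covariates), and p-values were adjusted by Benjamini-Hochberg over 19188 genes, with calls at 0.05. Standard errors match the F statistic and intervals are at 95%. CPM are counts per 1000000 scaled by TMM, and log2 CPM used a prior count of 2. The ratio of *Ucp1* to *Adipoq*, with 0.5 added to each count, was tested by an exact permutation of the 7 libraries. The procedure was tested on simulated counts. These were drawn independently for each gene and library, so that test does not cover a library that stands apart, as KO replicate 1 does.

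The members and lists were chosen with earlier results of these data known. Named are the members, *Mmp19*, the 4 genes of each list with the smallest p (marker lists are given by their sums), and the 5 genes most like *Ucp1* and *Adipoq*. Names outside this rule are said to be so. Lists of markers of 7 other tissues or cell types and of mitochondrially encoded genes served as checks. The list of capillary and nerve genes and that of nerve sheath markers are given without 3 of their genes, which were taken out after the analysis and are not reported here, and the other lists are whole. Alternatives were DESeq2 1.42.0, limma 3.58.1 with quality weights, other scalings and filters, division of the counts by 4, a block for replicate number, and fits without each library in turn.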

Additional observations from a re-analysis of the deposited data

Results flagged for a closer look

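In 70 groups of 4 WT values (members, their ratios to *Adipoq* and the genes named from the lists), 7 had a single library farther from the rest than Dixon's limit of 0.829 allows, where chance flags about 1 in 20. None was a value of a member. Among fat-related genes, *Prdm16* was high in WT replicate 3 (96.2 CPM, against 73.2 to 76.7 in the others), and *Fabp3* was high in WT replicate 2 (131 CPM, against 69.7 to 74.2). *mt-Co1* was high in WT replicate 2 as well (59390 CPM, against 41020 to 43610), the WT library in which *Ucp1* and *Adipoq* were highest.

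Nerve genes were high in WT replicate 3, with *Th* at 212 CPM (0.0815 to 0.338 in the other WT libraries), *Sox10*, a transcription factor of glia, at 14.7 CPM (1.86 to 3.20) and *Prx*, a protein of the nerve sheath, at 31.5 CPM (10.95 to 13.03). *Dbh*, which makes noradrenaline from dopamine and was named after its values were seen, read 413 CPM in that library, at most 0.204 CPM in the other WT libraries and 28.8 CPM in KO replicate 3. *Ucp1* was at its WT minimum in WT replicate 3, but at its highest of all libraries in KO replicate 3. The part of nerve tissue in the level of *Ucp1* was not tested. *Tnni2*, a skeletal muscle troponin, was low in WT replicate 2 (0.0704 CPM, against 0.235 to 0.258), a difference of few counts.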

How the results depend on the processing

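In 149 member values recomputed under alternatives, 0 were called, with adjusted p from 0.151 to 1. Over all genes, the count of 3 called was 0 without a filter, 7 with 50 counts in 3 libraries, 1606 with DESeq2, 7 with limma-voom, 7 with counts divided by 4, and 0 to 1029 without 1 library, the highest without KO replicate 2. With the replicate block 0 genes and 0 members were called, and *Ucp1* turned to -0.34. Deviations of same-numbered libraries correlated at 0.0545, 0.0691 and 0.34. Libraries of different numbers were not compared in this way, so these values cannot decide whether the numbers pair the libraries. The main fit used no pairing. With limma-voom *Ppargc1a* turned to 0.36 and *Lep* to 0.18. Without 1 library the log2 fold change ran from -0.84 to 0.62 for *Ucp1*, -0.995 to 0.00025 for *Cidea*, -0.19 to 0.086 for *Dio2*, -0.33 to 0.31 for *Ppargc1a*, -0.094 to 1.22 for *Elovl3*, -0.21 to 0.26 for *Adipoq*, -1.03 to 0.21 for *Lep*, -0.18 to 0.30 for *Pparg*, -0.55 to -0.0022 for *Plin1* and 0.27 to 1.21 for *Retn*. The log2 ratio of *Ucp1* to *Adipoq* ran from -1.03 (without KO replicate 3) to 0.37 (without KO replicate 1), and was -0.10 with *Plin1* in place of *Adipoq*. The medians of the thermogenic and general members ran from -0.33 to 0.31 and from -0.21 to 0.26. Leaving out any library except WT replicate 4 turned the sign of at least 1 member. With intervals this wide, a change of 2-fold in *Ucp1*, *Cidea*, *Lep* or *Elovl3* would not be detectable at this spread. It could be missed in the other members as well. *Prdm16*, with a log2 fold change of -1.04 and an SE of 0.28, was not called (edgeR adjusted p = 0.179). Every member except *Dio2* had a larger SE than *Prdm16*. A smaller SE did not ensure a call either: *F3*, with a log2 fold change of -1.18 and an SE of 0.24, was not called (edgeR adjusted p = 0.165).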
